A study of Mus musculus with 2 samples.

Results

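The genes described here are the clustered histone genes of the mouse, measured in forestomach organoids with and without SOX2. Members were the entries of the deposited array table whose gene symbol begins with Hist1h, Hist2h, Hist3h or Hist4h, and the rule used no measured value. They came to 58 genes of the 29456 genes with a probe set of their own. By class they were 5 H1, 15 H2A, 16 H2B, 11 H3 and 11 H4 genes. By the cluster in the symbol, 47 were Hist1 on chromosome 13, 7 Hist2 on chromosome 3, 3 Hist3 on chromosome 11 and 1 Hist4 on chromosome 6. Hist1h2al starts at 51200084 on chromosome 13, apart from the other Hist1 genes, which lie between 21715763 and 23934851. All 58 matched a RefSeq gene, of which 2 (Hist1h2al and Hist3h2bb-ps) are listed there as pseudogenes. A further 10 rows carried several symbols each and are given apart.

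The SOX2 KO organoids were grown from forestomach of Krt5CreER/+; Sox2∆/∆; ROSA26tdTomato/+ mice, in which tamoxifen activates a Cre recombinase driven by the Krt5 promoter of squamous cells. The WT control organoids came from wildtype mice, which in the study are littermates lacking the Krt5CreER allele. Both were cultured in Matrigel, and total RNA was labelled with the WT Plus assay for Affymetrix Mouse Gene 2.0 ST arrays. Each group had 1 library on 1 array, so no difference has a replicate check, no test was possible, and genotype cannot be told apart from mouse, culture or array. The animals' ages are not stated.

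Histone proteins form the spool around which DNA is wound: H2A, H2B, H3 and H4 make up the nucleosome core, and H1 binds the linker between cores. Most clustered genes are replication-dependent, being transcribed mainly in S phase when new DNA has to be packaged. Their mRNAs have no introns and usually end in a conserved stem loop instead of a poly(A) tail. SLBP, the stem loop binding protein, accompanies them through processing, export and translation. Several family members also make a longer polyadenylated mRNA, which is the form seen in cells that have stopped dividing. In squamous epithelium the dividing cells lie in the basal layer. The WT Plus assay primes along the RNA and therefore also labels RNA without a poly(A) tail.

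The genes are best known for compact promoters, and their upstream sequences are shown for H2B genes that differed in either direction and for the H1 and H4 classes. Sequences are the 120 bases before the RefSeq start (GRCm38.p6), 5′ to 3′ on the gene's strand. Capitals mark the TATA box (TATAAA), the CCAAT box, the octamer of H2B promoters (ATTTGCAT) and the box of H1 promoters (AAACACA). Each was searched on both strands, so that the CCAAT box may appear as its reverse complement. Hist1h2bb (chr13:23746614-23746733, plus strand), Hist1h2bk (chr13:22035701-22035820, plus) and Hist1h2bg (chr13:23571280-23571399, plus) read higher in the SOX2 KO library and carry the octamer, Hist1h2bg with both arrays under the receptor level. Hist1h2bn (chr13:21753956-21754075, plus) and Hist1h2bl (chr13:21716184-21716303, minus) read lower and carry none. Hist1h2bh and Hist1h2bj, which read higher by 0.17 and 0.11 and carry none either, are not printed. Hist1h1c (chr13:23738687-23738806, plus) stands for the H1 class and Hist1h4k (chr13:21750554-21750673, minus) for H4.
Hist1h2bb: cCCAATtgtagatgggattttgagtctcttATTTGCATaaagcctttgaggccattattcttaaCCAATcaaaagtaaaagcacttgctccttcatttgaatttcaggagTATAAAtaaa
Hist1h2bk: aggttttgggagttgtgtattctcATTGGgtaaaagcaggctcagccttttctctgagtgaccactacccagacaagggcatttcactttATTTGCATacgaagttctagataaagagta
Hist1h2bg: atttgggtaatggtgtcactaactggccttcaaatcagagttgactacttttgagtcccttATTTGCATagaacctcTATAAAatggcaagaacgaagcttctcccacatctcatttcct
Hist1h2bn: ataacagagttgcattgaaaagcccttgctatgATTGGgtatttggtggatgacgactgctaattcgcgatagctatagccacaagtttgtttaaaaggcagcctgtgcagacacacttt
Hist1h2bl: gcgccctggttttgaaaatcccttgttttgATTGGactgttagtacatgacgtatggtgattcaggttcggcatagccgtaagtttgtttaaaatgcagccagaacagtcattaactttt
Hist1h1c: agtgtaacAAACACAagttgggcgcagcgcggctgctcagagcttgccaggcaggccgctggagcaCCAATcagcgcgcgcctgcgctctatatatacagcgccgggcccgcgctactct
Hist1h4k: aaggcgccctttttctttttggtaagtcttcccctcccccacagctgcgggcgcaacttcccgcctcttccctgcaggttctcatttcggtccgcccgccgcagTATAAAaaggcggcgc

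The deletion was read first. Sox2 had a log2 signal of 2.53 in SOX2 KO organoids and 5.74 in WT control organoids, at least 3.73-fold lower in SOX2 KO. Log2 signals of all genes had a median of 3.29 in SOX2 KO and 3.30 in WT control. As a measure of background, 1128 olfactory receptor genes, which squamous cells are not known to use, had a 95th percentile of 3.84. That value is called the receptor level below, and a fold is given as a lower bound where the dimmer library was under it. The differences of the receptor genes between the libraries had an SD of 0.26 on the log2 scale, which stands in for the missing replicate spread only as a description. The basal squamous markers Krt5, Krt14, Krt15, Trp63, Itga6 and Itgb4 were above the receptor level on both arrays, with a summed linear signal of 1351 in SOX2 KO and 1148 in WT control. Krt15, at a log2 signal of 8.73 in SOX2 KO and 7.50 in WT control, carried the higher sum, and the median difference of the 6 was 0.04. All 7 suprabasal markers were also above it, summing to 1315 in SOX2 KO and 2146 in WT control. Krt13, Krt4 and Krt6a were lower in SOX2 KO, while the other 4 (Krt10, Krt1, Lor and Ivl) were higher, and the median difference of the 7 was 0.22. Markers of other cells differed as well. The 5 smooth muscle markers were all higher in SOX2 KO (summed signal 277, against 69.6 in WT control). The 6 fibroblast markers summed to 120 in SOX2 KO and 59.0 in WT control. Dcn, at a log2 signal of 5.90 in SOX2 KO and 2.83 in WT control, carried the higher fibroblast sum. The median difference of the 6 was 0.125, and 1 of them, Col1a1, was above the receptor level on both arrays. Of the 6, 3 (Col3a1, Lum and Pdgfra) were lower and under the receptor level on both arrays. Leukocyte markers summed to 217 in SOX2 KO and 178 in WT control, endothelial markers to 42.7 in SOX2 KO and 47.8 in WT control, and gastric and columnar markers to 142 in SOX2 KO and 121 in WT control. Their part in the histone differences was not tested, and in bulk RNA fewer cells of a type cannot be told apart from less RNA per cell.

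Most clustered histone genes gave little signal in either library. Of the 58, 13 were above the receptor level on at least 1 array and 10 on both, while 45 were above it on neither; of all genes, 35.7% were above it on at least 1 array. The members' median signal was 2.40 in SOX2 KO and 2.49 in WT control. A floor at the median of all genes, 3.3, was passed on at least 1 array by 17 members, leaving 41 below it, and by 54.3% of all genes. Hist2h4 and Hist1h2bg passed it only through the SOX2 KO array and Hist1h2bf only through the WT control array.

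**Figure D1:**
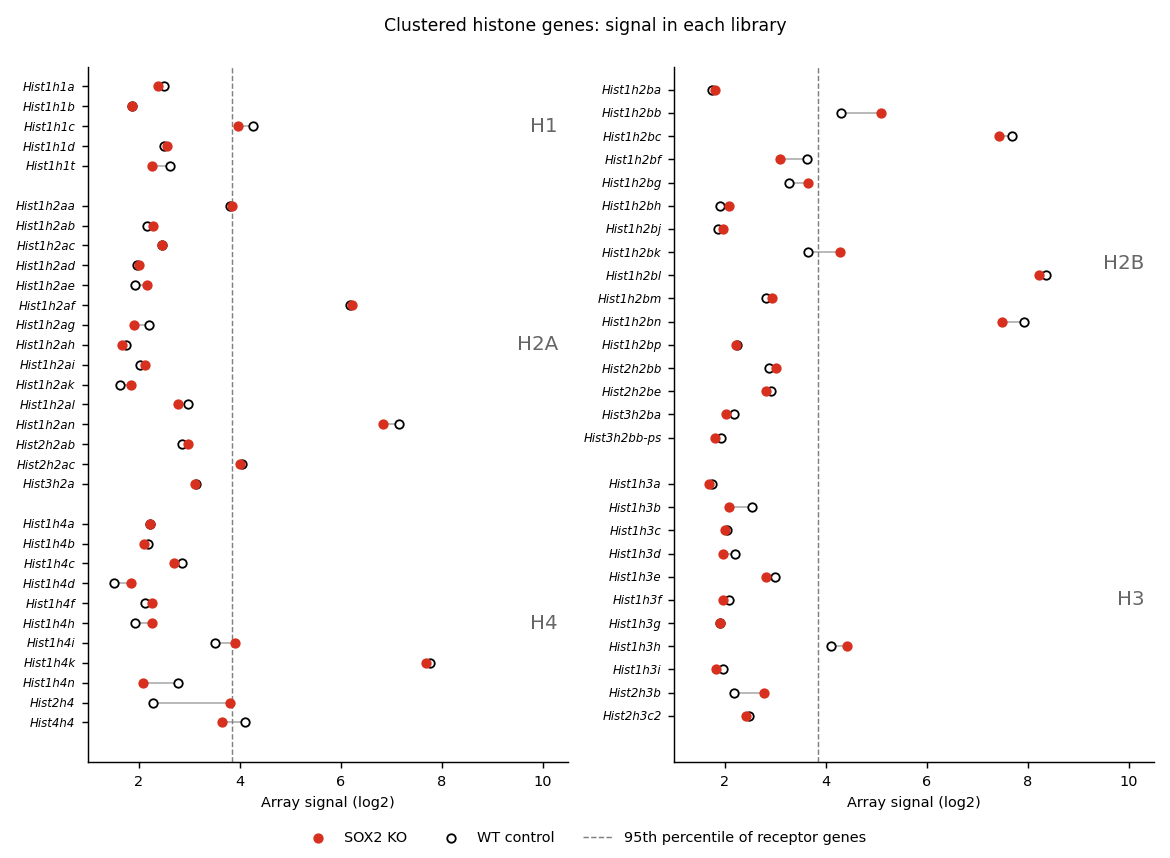
Log2 array signal of each of the 58 clustered histone genes in the SOX2 KO library (filled red) and the WT control library (open), by class; the dashed line is the receptor level of 3.84. Most genes lie left of the line in both libraries, and the bright genes (Hist1h2bl, Hist1h2bn, Hist1h2bc, Hist1h4k, Hist1h2an, Hist1h2af) lie far right of it with small gaps.

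As a family the clustered histone genes differed little between SOX2 KO and WT control organoids. Over all 58, 24 were higher in SOX2 KO, 30 lower and 4 equal, against 47.4% of all genes higher and 48.5% lower, with a median difference of -0.025 (SOX2 KO minus WT control, log2) and quartiles of -0.15 and 0.12. The spread of the differences was an SD of 0.34, against 0.33 over all genes, whose median was 0.00. Among the 17 that passed the floor, 8 were higher and 9 lower, with a median of -0.03, against 47.8% and 49.4% of all genes above the floor. The sign of that summary was not stable, since the mean was 0.091 and the median without the probe sets that lie inside the gene, a choice made after the values were seen, was 0.31. By the measured log2 difference, 1 of the 17 was past 2-fold higher, Hist2h4, and 0 were past 2-fold lower, against 2.01% and 0.795% of all genes above the floor. Hist2h4 passed the floor only through the SOX2 KO array, where it is high, and was above the receptor level on neither, and with both arrays required past the floor the count was 0. Past 1.5-fold by the same measure, 3 were higher (Hist1h2bb, Hist1h2bk and Hist2h4) and 0 lower, against 6.45% and 4.43%. Of these 3, Hist1h2bb alone was above the receptor level on both arrays, and the bound for Hist1h2bk, at least 1.35-fold, lies under 1.5-fold. The shares are counts of genes past a fold in 1 pair of libraries and carry no p-value.

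**Figure D2:**
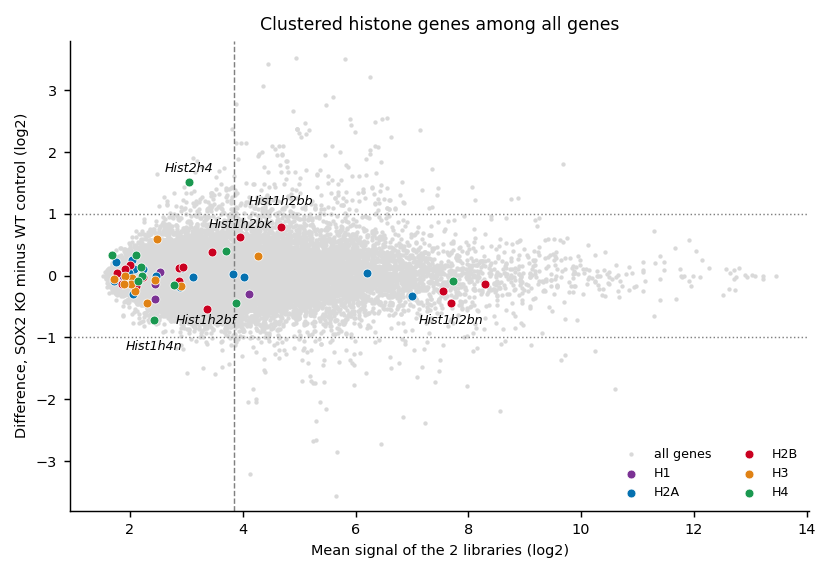
Difference between the libraries (SOX2 KO minus WT control, log2) against the mean log2 signal, with all genes in grey and the clustered histone genes coloured by class; dotted lines mark 2-fold and the dashed line the receptor level. The histone genes lie within the cloud of all genes, and Hist2h4 at 1.52 is the one member beyond a dotted line.

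Among the few members with clear signal, more read lower than higher. Of the 10 above the receptor level on both arrays, 3 were higher and 7 lower in SOX2 KO, with a median of -0.11. Of all such genes 47.5% were lower, and their differences had an SD of 0.41. Whether the 10 depart from that share was not tested. The summed linear signal of the 10 was 1131 in SOX2 KO and 1282 in WT control, a ratio of 0.883. With a mean signal above 6, a limit chosen after the values were seen, 5 of 6 members were lower (all but Hist1h2af), with a median of -0.20 and a range of -0.44 to 0.05, beside 46.8% of the 1862 genes that bright. None of these 6 reached 1.5-fold. All but Hist1h2bc were read by probe sets inside the gene, 312 to 399 bases long. Whether those probe sets also took up signal from other genes of their class was not tested. The 6 may therefore not be separate readings.

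H2B genes, whose product pairs with H2A in the core, differed in both directions. Hist1h2bl (chromosome 13, 21715763 to 21716143) had a log2 signal of 8.22 in SOX2 KO and 8.36 in WT control. Hist1h2bn (chromosome 13, 21754123 to 21754503) had 7.48 in SOX2 KO and 7.92 in WT control, 1.36-fold lower. Hist1h2bc, which also makes a long polyadenylated mRNA, had 7.43 in SOX2 KO and 7.68 in WT control, 1.19-fold lower. These 3 were all a little lower in the SOX2 KO library. Hist1h2bb (chromosome 13, 23746734 to 23747202) ran the other way, at 5.08 in SOX2 KO and 4.29 in WT control, 1.73-fold higher. Hist1h2bk (chromosome 13, 22035821 to 22036299) had 4.27 in SOX2 KO and 3.65 in WT control, at least 1.35-fold higher. Differences had an SD of 0.41 over all genes above the receptor level on both arrays and 0.45 over those above it on at least 1. Of the dimmer members, Hist1h2bg had 3.64 in SOX2 KO and 3.26 in WT control, and Hist1h2bf had 3.09 in SOX2 KO and 3.63 in WT control, all below the receptor level. Over the 16 H2B genes 8 were higher and 8 lower, with a median of 0.015, and their summed signal was 770 in SOX2 KO and 876 in WT control.

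The octamer, the site for OCT1-type factors, is a known hallmark of H2B promoters. RefSeq promoter windows (250 bases before to 50 after the start) were available for 13 of the 16. The octamer was present in 6 windows, those of Hist1h2bb, Hist1h2bk, Hist1h2bg, Hist1h2bm, Hist2h2bb and Hist1h2ba. All 6 read higher in SOX2 KO, with a median difference of 0.26, beside 47.4% of all genes. The 1128 olfactory receptor genes, the measure of background, also leaned higher, with 645 higher, 436 lower and a median of 0.04. Of the 6, however, only Hist1h2bb and Hist1h2bk were above the receptor level on any array. Hist1h2bg passed the floor only through the SOX2 KO array, and Hist1h2bm, Hist2h2bb and Hist1h2ba were below it, with differences of 0.12, 0.14 and 0.05. Of the 7 without it, 2 were higher and 5 lower, with a median of -0.14. The octamer was also in 7 of 14 H2A windows, and there 3 genes were higher, 3 lower and 1 equal, with a median of 0.00. These H2A windows are not a separate set, since genes that lie head to head have overlapping windows and an octamer can count for both. Hist1h2ah, Hist1h2ae and Hist1h2aa are the partners of Hist1h2bk, Hist1h2bg and Hist1h2ba in turn. Hist1h2bc and Hist2h2be had no window of their own and differed by -0.25 and -0.09, although the windows of their head-to-head H2A partners, Hist1h2ac and Hist2h2ac, hold the octamer. The grouping was read after the values were seen, was not tested, and rests on few genes with clear signal.

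Across the classes the motifs followed known promoter types. CCAAT was in 44 of 51 member windows (86.3%, against 37.41% of 32851 RefSeq promoters), in every H1, H2A, H2B and H3 window and in 3 of 10 H4 windows. TATAAA was in 31 of 51 (60.8%, against 13.62%). The octamer was in 13 of 51 (25.5%, against 1.74%), none of them H1, H3 or H4, and a site between head-to-head partners can count in both windows. The H1 box was in 8 of 51 (15.7%, against 7.18%), namely 4 of 5 H1, 2 H2A and 2 H2B windows. ACAATG, a part of the motif bound by SOX proteins, was in 4 of 51 windows (7.8%, against 12.57%). These were Hist1h2af, Hist1h2ag, Hist1h2ah and Hist1h2bk, of which 2 were higher and 2 lower in SOX2 KO, Hist1h2af turning to lower under quantile scaling. No motif overlapped another in the members, and a match is only a match of letters.

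H2A genes showed small differences. Hist1h2an (chromosome 13, 21786826 to 21787218) had a log2 signal of 6.83 in SOX2 KO and 7.16 in WT control, 1.26-fold lower. Hist1h2af had 6.23 in SOX2 KO and 6.18 in WT control, and its difference of 0.05 turned to -0.10 when the arrays were quantile scaled. Hist2h2ac had 4.01 in SOX2 KO and 4.04 in WT control. The fourth gene past the floor was the testis form Hist1h2aa, at 3.84 in SOX2 KO and 3.81 in WT control, not above the receptor level. The other 11 H2A genes were below the floor, the largest differences being 0.25 for Hist1h2ae and -0.29 for Hist1h2ag. Over all 15, 8 were higher, 6 lower and 1 equal, with a median of 0.03.

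H4 genes included the largest difference of the 58, in a probe set with little signal. Hist1h4k (chromosome 13, 21750194 to 21750505) had a log2 signal of 7.69 in SOX2 KO and 7.77 in WT control. Hist1h4i had 3.91 in SOX2 KO and 3.51 in WT control, at least 1.05-fold higher. Hist4h4 had 3.66 in SOX2 KO and 4.11 in WT control, at least 1.20-fold lower, and its other probe set also read lower (2.84 in SOX2 KO, 3.10 in WT control). Hist2h4 had 3.81 in SOX2 KO and 2.29 in WT control, a difference of 1.52, with both arrays under the receptor level, so no fold is given. Its probe set spans 1614 bases (chromosome 3, 96261704 to 96263317, minus strand), of which the RefSeq gene H4c14 covers 384, and it reaches 1230 bases past the gene's 3′ end. Which transcripts give signal in that stretch was not tested. The 7 remaining H4 genes were below the floor, among them Hist1h4n at 2.08 in SOX2 KO and 2.79 in WT control. The 11 H4 genes split into 5 higher, 5 lower and 1 equal.

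H3 and H1 genes gave little signal in rows of their own, with 1 gene of each class past the floor. Hist2h3c2 had 2.41 in SOX2 KO and 2.48 in WT control there. The row it shares with Hist2h3c1 had 5.40 in SOX2 KO and 5.59 in WT control. Hist1h3h was the only H3 gene past the floor, with 4.42 in SOX2 KO and 4.11 in WT control, 1.24-fold higher. Of the 11 H3 genes 2 were higher, 8 lower and 1 equal, with a median of -0.07, beside 48.5% of all genes lower. All 8 lower ones were below the floor. Hist2h3b, below the floor, had 2.78 in SOX2 KO and 2.18 in WT control. Hist1h1c was the only linker histone gene past the floor, with 3.96 in SOX2 KO and 4.26 in WT control, 1.23-fold lower. The testis linker gene Hist1h1t had 2.26 in SOX2 KO and 2.63 in WT control, and the testis H2B gene Hist1h2ba 1.80 in SOX2 KO and 1.75 in WT control. None of the 3 testis genes was above the receptor level.

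The 4 measured genes known to make polyadenylated transcripts as well all read lower, but only 2 had clear signal on both arrays. Hist1h1c, Hist1h2bc, Hist4h4 and Hist2h2be (2.82 in SOX2 KO, 2.91 in WT control) were 4 of 4 lower, with a median of -0.275, and none reached 1.5-fold. Hist2h2be was below the floor, and Hist4h4 was above the receptor level on the WT control array only. Over all genes, 48.5% were lower. Hist2h2aa1, the fifth of the list, shares its probe sets with its near-identical copy Hist2h2aa2.

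Rows that could not be assigned to a single gene gave small differences. The 10 rows held 11 symbols with no row of their own, and 6 of them formed pairs of identical values, leaving 7 distinct readings. Of these 7, 1 was higher and 6 lower in SOX2 KO, with a median of -0.11, beside 48.5% of all genes lower, and 3 of the 6 were below the floor. Hist2h2aa1 with Hist2h2aa2, near-identical H2A copies, had a log2 signal of 8.79 in SOX2 KO and 9.15 in WT control, 1.28-fold lower. Hist1h2ao with Hist1h2ap and Hist1h2ah had 6.42 in SOX2 KO and 6.47 in WT control, and Hist2h3c2 with Hist2h3c1 had 5.40 in SOX2 KO and 5.59 in WT control. The H2B copies Hist1h2bq and Hist1h2br were the exception, with 5.23 in SOX2 KO and 4.97 in WT control. Signal from one copy cannot be separated from that of another in such rows.

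Higher and lower genes lay side by side along the clusters. H2A and H2B genes often lie head to head, transcribed away from a shared promoter stretch, and 11 such pairs were found with 163 to 280 bases between them. In 5 of 11 the partners differed in the same direction, and in none were both partners above the receptor level. In its own row Hist1h2ah had 1.68 in SOX2 KO and 1.76 in WT control. Its partner Hist1h2bk, 177 bases away, was at least 1.35-fold higher in SOX2 KO. The row that Hist1h2ah shares with Hist1h2ao and Hist1h2ap was far brighter (6.42 in SOX2 KO, 6.47 in WT control). Hist1h2ak had 1.86 in SOX2 KO and 1.64 in WT control, while Hist1h2bn, 163 bases away, was 1.36-fold lower. Hist1h2ae and Hist1h2bg, 179 bases apart, were both higher, by 0.25 and 0.38. Median differences by the cluster in the symbol were 0.00 for Hist1, 0.12 for Hist2, -0.13 for Hist3 and -0.45 for the single Hist4 gene.

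**Figure D3:**
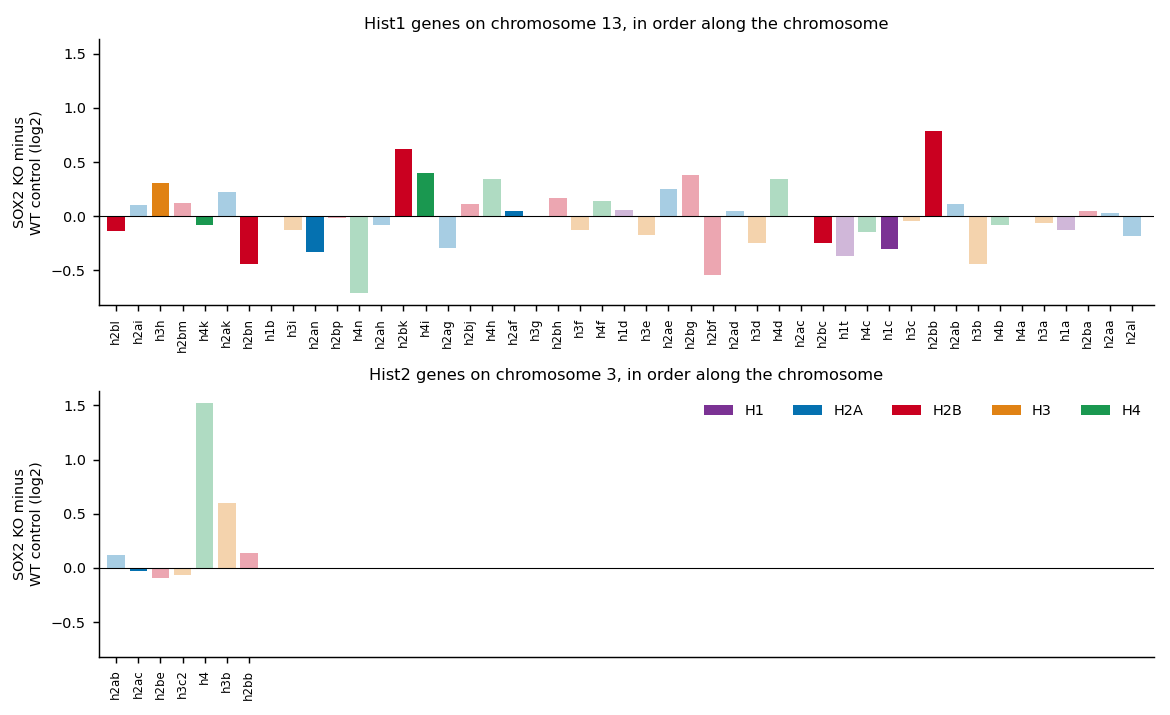
Difference (SOX2 KO minus WT control, log2) of each gene of the Hist1 cluster on chromosome 13 and the Hist2 cluster on chromosome 3, in chromosomal order; full colour marks genes above the receptor level on at least 1 array and pale bars the rest. Higher and lower genes lie side by side in both clusters, and the tallest bar, Hist2h4 at 1.52, is pale. Bars are not spaced by distance, and the last Hist1 bar, Hist1h2al, lies apart from the rest.

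Where the probes lie went with how bright a gene read. In 7 members the probe set lay at least 20 bases inside both ends of the RefSeq gene, and 5 of these 7 were above the receptor level on both arrays. Of the other 51, 5 were above it on both. The criterion was chosen after the values were seen. The 7 were Hist1h2an, Hist1h2af, Hist1h2aa, Hist2h2ab, Hist1h2bl, Hist1h2bn and Hist1h4k. Whether dim readings of other members reflect little mRNA or the placing of the probes was not tested. Whether bright readings include signal from other genes of the class was not tested either.

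The replacement histone genes, which lie outside the clusters and many of which are made throughout the cell cycle, showed the same small scale. Of 14 measured, 10 passed the floor, with 2 higher, 7 lower and 1 equal in SOX2 KO and a median of -0.09. Of all genes above the floor 49.4% were lower. H2afj and Cenpa passed the floor only through the WT control array, where they are high, and were under the receptor level on both arrays. With both arrays required past the floor the median was -0.045. H1f0, a linker histone of resting cells, had 6.31 in SOX2 KO and 6.0 in WT control, 1.24-fold higher. H2afj had 2.87 in SOX2 KO and 3.34 in WT control. H2afy, the macroH2A gene, had 6.16 in SOX2 KO and 6.38 in WT control, and Cenpa, the centromeric H3, 3.21 in SOX2 KO and 3.46 in WT control. Other differences were -0.11 for H2afv, -0.03 for H1fx, -0.06 for H2afx, which marks DNA breaks when phosphorylated, -0.15 for H2afz, 0.00 for H3f3a and 0.06 for H3f3b. None reached 1.5-fold.

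Genes that transcribe and process histone mRNA were evenly split. Of 19, 16 passed the floor, 8 higher and 8 lower, with a median of -0.01. Slbp had 5.40 in SOX2 KO and 5.17 in WT control, 1.17-fold higher. Npat, the coactivator of histone gene transcription in S phase, had 4.69 in SOX2 KO and 4.31 in WT control, 1.30-fold higher. Sympk, a scaffold of the cleavage complex, had 4.14 in SOX2 KO and 3.77 in WT control, and Cstf2, another cleavage factor, 3.36 in SOX2 KO and 3.87 in WT control. Histone chaperones, which carry histones to DNA, had 12 of 13 past the floor, 5 higher and 7 lower, with a median of -0.105. Of all genes above the floor 47.8% were higher and 49.4% lower. Chaf1a passed the floor only through the WT control array, and with both arrays required the chaperone median was -0.10. Hira, which deposits the H3.3 form, had 4.19 in SOX2 KO and 3.66 in WT control, at least 1.27-fold higher. Nap1l4 differed by 0.39, and Rbbp4, a subunit of the chromatin assembly factor CAF-1, by 0.36. No gene of either group reached 1.5-fold.

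S phase genes leaned to the higher side in SOX2 KO. Of 25, 21 passed the floor, with 15 higher and 6 lower and a median of 0.16. Of all genes above the floor 47.8% were higher, with a median of 0.00. Olfactory receptor genes past the floor also leaned higher, 104 of 166, with a median of 0.12. Only 9 of the 25 S phase genes were above the receptor level on both arrays. Pola1 and Uhrf1 passed the floor only through the SOX2 KO array, and Cdc6 and Rpa2 only through the WT control array. With both arrays required past the floor the S phase median was 0.17. Ccna2, the cyclin of S phase and G2, had 4.22 in SOX2 KO and 3.33 in WT control, at least 1.30-fold higher. Pola1, the catalytic subunit of primase-bound DNA polymerase, had 3.86 in SOX2 KO and 3.28 in WT control, and Mcm3, a subunit of the replicative helicase, 3.39 in SOX2 KO and 3.92 in WT control. Pcna, the replication clamp, had 6.84 in SOX2 KO and 6.73 in WT control, and its 0.11 became -0.04 under quantile scaling. Whether this list differs from the histone genes or the receptor genes was not tested.

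**Figure D4:**
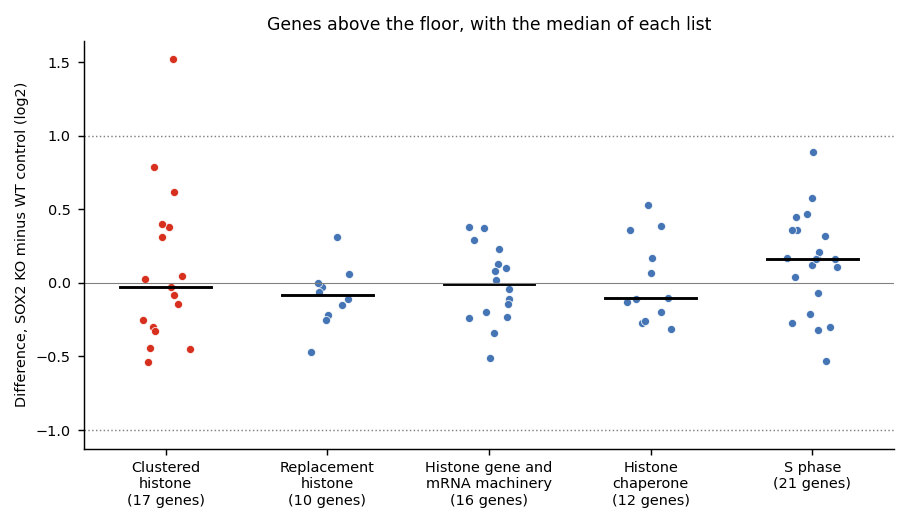
Differences (SOX2 KO minus WT control, log2) of genes above the floor in each list, with the median as a bar: 17 clustered histone genes, 10 replacement histone genes, 16 transcription and mRNA processing genes, 12 chaperones and 21 S phase genes. The S phase median of 0.16 lies above the other medians, which run from -0.105 to -0.01, and the point at 1.52 is Hist2h4.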

How the data were processed

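Mouse forestomach organoid RNA, 1 SOX2 KO and 1 WT control library, was run on Affymetrix Mouse Gene 2.0 ST arrays. Normalization by the authors was done with Transcriptome Analysis Console, and the deposited values are log2 signals to 2 decimals, 1 per probe set. Its version and the summarization method were not given in the sources used here. The deposited fold change and p-value columns hold the authors' own comparison and were not used. Of 34472 probe sets, 29971 had 1 symbol, 1902 several and 2599 none. A gene took its probe set of highest mean signal. Differences are SOX2 KO minus WT control. With 1 array per group the number of arrays limits precision, and no test was fitted. The floor was 3.3, the median of all genes; the receptor level was the 95th percentile of olfactory receptor genes. Genes were matched to RefSeq (GRCm38.p6) by accession or synonym, and promoter sequences are RefSeq's. Genes named were Sox2, in each class the brightest and those with the largest differences, testis and polyadenylated histone genes, and the leading genes of each list; others were added for a promoter or a neighbour. Members and lists were chosen with earlier results of these data known. The procedure was tested on simulated data. Analysis used Python 3.11.15, pandas 2.3.3, numpy 2.4.6, statsmodels 0.14.6 and matplotlib 3.10.9. Alternatives were other scalings, filters, probe set choices, list summaries and folds.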

Additional observations from a re-analysis of the deposited data

How the results depend on the processing

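No paired analysis was possible because neither group held more than 1 library, and likewise no library could be left out. A median was taken as moved when it shifted by over 0.1 log2, a count by over 1.5 times and a gene by over the receptor genes' SD. On that basis 140 values for lists and counts stayed and 20 moved, and 1013 values for single genes stayed. Many of the 1013 could not have moved. For a gene with 1 probe set, the series' own value table and the probe set choices return the same value. Centring shifted all genes alike. Scaling left the median of all genes at 0.00 as deposited, 0.01 after centring and -0.02 after quantile scaling, and quantile scaling moved the median of rows with several symbols to -0.21. The series' own value table held identical values. With no filter the class medians became -0.13 for H1, 0.015 for H2B, -0.07 for H3 and 0.00 for H4. Requiring both arrays past the floor, or the receptor level instead of it, left 0 genes 2-fold higher and an H4 median of -0.08. Genes with 1 probe set gave an H4 median of 0.40. Adding rows with several symbols gave 0.26 for H2B and 0.06 for H3. Means in place of medians gave 0.091 for all clustered genes, 0.06 for H2B, 0.35 for H4 and 0.012 for chaperones. The count of higher genes was 3 at 1.5-fold and 0 at 3-fold. After the data were seen, leaving out probe sets that reach at least 500 bases past the gene's 3′ end gave 0 higher genes, since Hist2h4 is among them. Leaving out probe sets inside the gene gave a clustered median of 0.31. Other causes were not tested. Small differences near the receptor level cannot be resolved with 1 array per group.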

Other observations

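Differentiation markers of the squamous lineage differed in both directions. Krt10, a keratin of cornifying epithelium, had a log2 signal of 7.86 in SOX2 KO and 4.65 in WT control, 9.25-fold higher, and Krt1, its partner, 6.86 in SOX2 KO and 4.10 in WT control. Lor, a component of the cornified envelope, had 6.23 in SOX2 KO and 4.52 in WT control. Krt13 ran the other way, at 8.97 in SOX2 KO and 10.33 in WT control, 2.57-fold lower, as did Krt6a, at 7.47 in SOX2 KO and 8.69 in WT control. The basal keratins Krt5 and Krt14 differed by -0.15 and 0.03, the 0.03 turning to -0.05 under quantile scaling. All values are from 1 library per group, with no replicate check.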
